A study of Homo sapiens with 10 samples.

Results

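Cells make saturated fatty acids from citrate, lengthen and desaturate them, and link them to coenzyme A before use, and the 10 genes described here, ACLY, ACACA, FASN, SCD, FADS1, FADS2, ELOVL5, ELOVL6, ACSL1 and ACSL3, encode enzymes of these steps. The genes were chosen by name, with earlier results of these data known. A transcript cluster is the set of probes that the array assigns to 1 transcribed region. Each gene was read from the cluster that carries its symbol. For 9 of the 10 genes there was 1 such cluster each, among 21214 clusters with a symbol and 33297 in all. No cluster was named for ACSL3, which was not analysed here.

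The cells were THP-1, a human monocytic leukaemia line that takes on a macrophage form under PMA, a phorbol ester. All cells received PMA for 24 h and then, for 24 h, either punicalagin, an ellagitannin of pomegranate, at 10 µM, the flavonols myricetin or quercetin, or the solvent DMSO. There were 3 punicalagin arrays (passages 6, 7 and 8 of the cells), 2 myricetin arrays (passages 7 and 8), 2 quercetin arrays (passages 7 and 8) and 3 DMSO arrays (passages 6, 7 and 8). The doses of myricetin and quercetin are not given in the sources used here, so differences between compounds are not known to be at matched doses. The labels call the arrays of a group biological replicates, and all are of 1 cancer line, so the p-values measure the spread between passages of that line.

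Affymetrix Human Gene 1.0 ST arrays were hybridised with RNA of whole cultures, and the deposited values are log2 intensities, so that a difference of 1 is a doubling of signal and levels of different genes are not set against each other. Fewer cells expressing a gene and less RNA per cell cannot be told apart in such samples. Array medians lay between 5.14 and 5.25 and lower quartiles between 3.55 and 3.72. Of 9 macrophage markers measured, 6 lay above the upper quartile on every array of punicalagin, quercetin and DMSO, and 7 on every array of myricetin. None of 8 epithelial and fibroblast markers did, and 1 of 8 markers of other blood cells, the neutrophil elastase gene ELANE, did. The mean level of the macrophage markers was 8.83 to 9.70 over the punicalagin arrays, 8.69 to 8.83 over the myricetin arrays, 8.97 to 9.14 over the quercetin arrays and 8.43 to 8.78 over the DMSO arrays, and its part in the results below was not tested. Their median log2 difference from DMSO was 0.75 with punicalagin, 0.17 with myricetin and 0.23 with quercetin. With punicalagin 6 of the 9 were higher and 1 lower at an unadjusted limma p under 0.05 (7.34% and 4.94% of all clusters). CD163, a scavenger receptor of macrophages, rose under punicalagin (log2 difference 1.89 ± 0.20 SE, limma adjusted p = 0.00270) and under quercetin (1.85 ± 0.20 SE, limma adjusted p = 0.000414), and CD68 rose under quercetin (1.13 ± 0.21 SE, limma adjusted p = 0.0103). SPI1, another of these markers, went the other way. It was lower on every compound array (8.60 to 9.05) than on every DMSO array (9.13 to 9.46), although no macrophage marker fell past the threshold against DMSO. The DMSO array of passage 6 correlated least with the rest (mean Pearson r 0.969, against 0.977 to 0.983 for the other arrays), and it was the lowest DMSO array for 8 of the 9 genes.

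As background, ATP citrate lyase (ACLY) splits citrate in the cytosol into acetyl-CoA, acetyl-CoA carboxylase (ACACA) turns this into malonyl-CoA, and fatty acid synthase (FASN) joins the units into palmitate. Stearoyl-CoA desaturase (SCD) places the first double bond in saturated chains, and the desaturases FADS1 and FADS2 act with the elongase ELOVL5 in making polyunsaturated fatty acids from dietary precursors. ELOVL6 lengthens palmitate, and ACSL1 and ACSL3 are long-chain acyl-CoA synthetases. Many of these genes are known targets of the sterol-responsive factors SREBP-1 and SREBP-2 and of the oxysterol receptors LXR, and macrophages use the enzymes in remodelling their membranes and in storing lipid.

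The promoter sequences of SCD, FADS2, FADS1 and ELOVL5 are shown because these genes had the largest differences between punicalagin and DMSO arrays. They are from RefSeq, build GRCh38.p14, and each holds the 250 bases before the gene's first listed start, read 5′ to 3′ on the gene's own strand. Capitals mark CCAAT, the box bound by NF-Y, on either strand (ATTGG where it lies on the other strand), and CACGTG, the E-box.
SCD, chr10:100346983-100347232, plus strand: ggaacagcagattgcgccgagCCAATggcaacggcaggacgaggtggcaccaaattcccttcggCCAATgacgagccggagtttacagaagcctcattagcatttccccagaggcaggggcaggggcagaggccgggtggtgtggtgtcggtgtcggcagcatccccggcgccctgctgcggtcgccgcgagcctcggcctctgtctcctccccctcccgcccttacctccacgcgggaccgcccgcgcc
FADS2, chr11:61815953-61816202, plus strand: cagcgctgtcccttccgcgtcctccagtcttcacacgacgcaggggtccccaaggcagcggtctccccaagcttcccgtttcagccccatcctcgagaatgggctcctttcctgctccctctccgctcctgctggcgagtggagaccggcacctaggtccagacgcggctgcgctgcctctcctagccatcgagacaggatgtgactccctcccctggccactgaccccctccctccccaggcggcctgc
FADS1, chr11:61817004-61817253, minus strand: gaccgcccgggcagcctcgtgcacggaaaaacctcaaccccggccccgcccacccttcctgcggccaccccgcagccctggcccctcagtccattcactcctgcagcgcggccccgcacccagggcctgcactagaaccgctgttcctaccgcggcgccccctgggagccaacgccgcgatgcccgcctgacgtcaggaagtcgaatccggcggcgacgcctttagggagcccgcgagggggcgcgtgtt
ELOVL5, chr6:53348951-53349200, minus strand: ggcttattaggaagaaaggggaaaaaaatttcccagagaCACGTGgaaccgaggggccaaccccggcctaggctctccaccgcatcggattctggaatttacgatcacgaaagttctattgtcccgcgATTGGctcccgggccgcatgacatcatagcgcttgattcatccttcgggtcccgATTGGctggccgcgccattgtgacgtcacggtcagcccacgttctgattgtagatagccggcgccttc
FADS2, around the CCAAT at its later start, chr11:61816397-61816426, plus strand: tccgcaggacacCCAATcaccgggcaacag
SCD had 2 CCAAT boxes before its start, 229 and 186 bases away, and ELOVL5 had 2, 122 and 68 bases away, together with an E-box 211 bases away. FADS1 had none, and FADS2 had none before its first listed start and 1 at a later start. FADS1 and FADS2 are neighbours on opposite strands of chromosome 11. Windows from 250 bases before to 50 after a start were listed for 9 of the 10 genes, ACSL3 included. FASN had no window and was not searched, so these 9 are not the 9 measured genes. CCAAT was held in at least 1 window by 7 of the 9, against 39.7% of the 27305 genes with a window. Of the 17 windows of these 9 genes, 9 held CCAAT, against 34.6% of all 35116 windows. CACGTG occurred in ELOVL5 alone among the 9 genes with a window (8.77% of all genes with a window). The sterol regulatory element TCACNCCAC, where N is any base, occurred in ACSL1 alone (1.39% of all genes). The GC box GGGCGG occurred in 8 of the 9 (48.3% of all genes) and in 11 of their 17 windows (45% of all windows). The half-site AGGTCA of nuclear receptors, repeated in the same direction with 4 bases between (LXR type) or 1 base between (PPAR type), occurred in none of the 9 genes with a window (0.0256% and 0.0293% of all genes). Both strands were searched and no motif letters were allowed to differ.

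Under punicalagin, 2 of the 9 genes rose past the threshold, the desaturase genes FADS2 and SCD, and none fell. An adjusted p under 0.05 was reached with a rise by 2.13% of all clusters tested and with a fall by 0.198%. Without adjustment, 5 of the 9 were higher at p under 0.05 (7.34% of all clusters), namely FADS2, SCD, ELOVL5, FADS1 and FASN. The median difference over the 9 genes was 0.62, against -0.053 over all clusters tested. It was 0.38 without the DMSO array of passage 6 and 0.37 with array weights. Every punicalagin array lay above every DMSO array for 5 of the 9 (8.39% of all clusters).

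**Figure D1:**
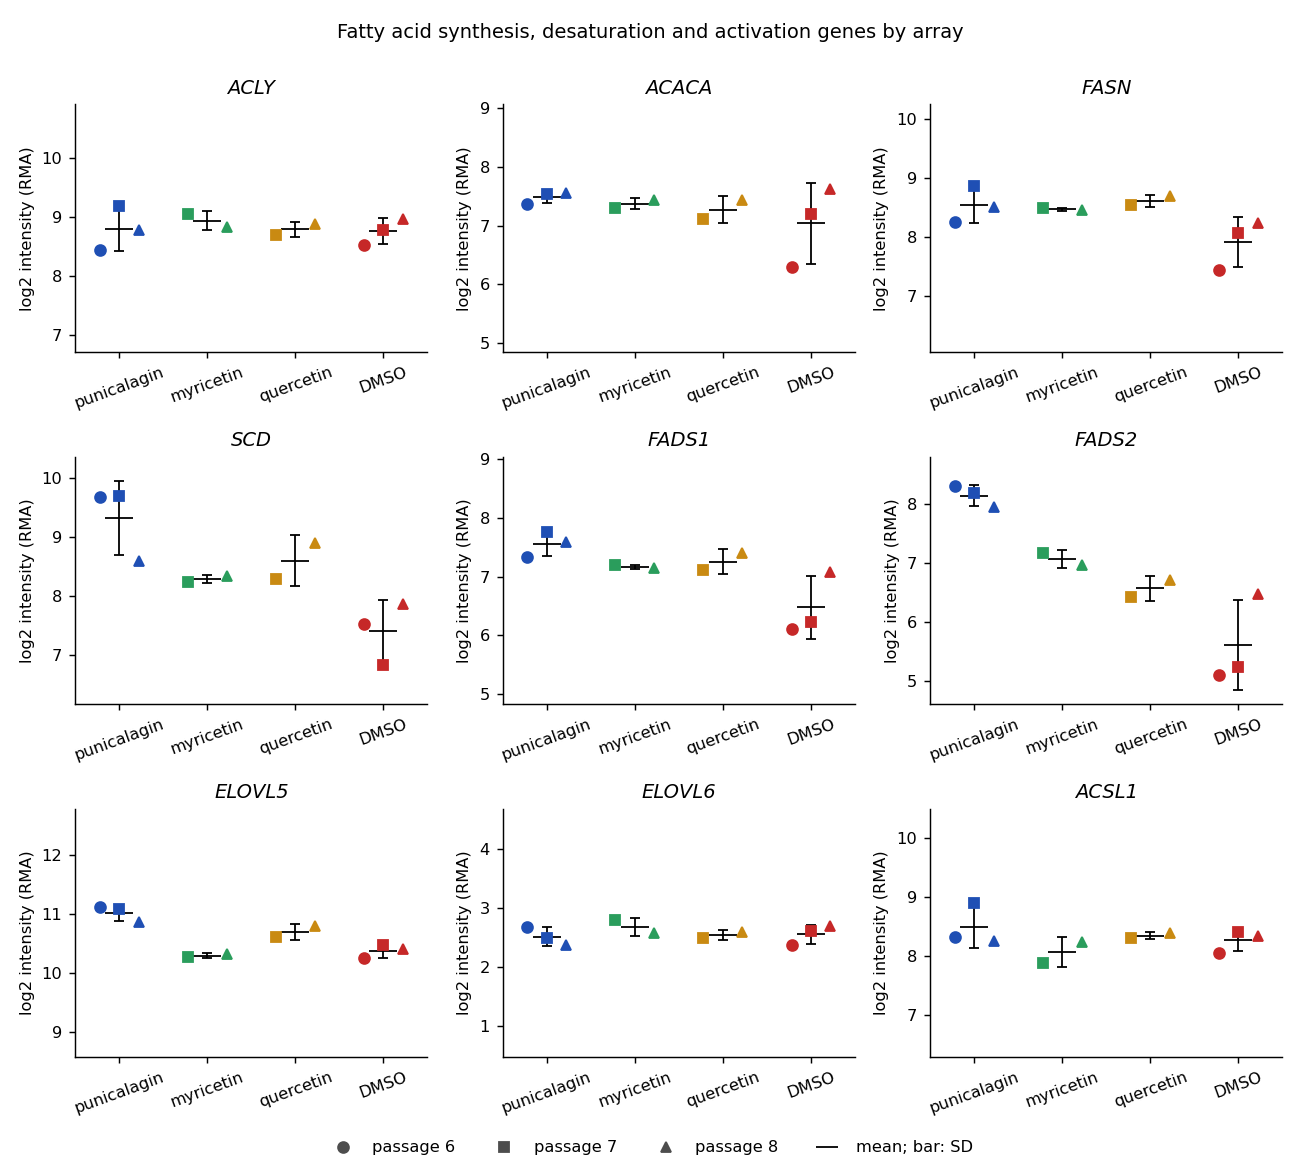
Log2 intensity (RMA) of the 9 measured genes on each array, with 1 panel per gene; points are arrays, shapes are passages, and lines and bars are the mean and SD of punicalagin, myricetin, quercetin and DMSO arrays. FADS2 stood at 7.95 to 8.31 on punicalagin arrays and at 5.11 to 6.48 on DMSO arrays, while ACLY stayed within 8.43 to 9.18 on all arrays.

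FADS2, the delta-6 desaturase, gave the widest separation of the 9 genes. Its level was 8.31, 8.19 and 7.95 on the punicalagin arrays of passages 6, 7 and 8, 7.18 and 6.97 on the myricetin arrays of passages 7 and 8, 6.42 and 6.72 on the quercetin arrays of passages 7 and 8, and 5.11, 5.25 and 6.48 on the DMSO arrays of passages 6, 7 and 8. The punicalagin arrays agreed closely, and the DMSO array of passage 8 was far above the other two, overlapping the quercetin arrays. The mean was 8.15 ± 0.18 with punicalagin and 5.61 ± 0.76 with DMSO (SD, n = 3 each), a log2 difference of 2.54 ± 0.33 (SE, 95% interval 1.80 to 3.28), which is 5.81-fold, with a limma adjusted p of 0.00604. The difference was 3.20, 2.94 and 1.47 within passages 6, 7 and 8. Without the punicalagin array of passage 7 the limma adjusted p was 0.0622. By the methods' t-test, which here stands for the analysis of variance that the study's methods name, the adjusted p was 0.234.

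SCD, the delta-9 desaturase whose main product is oleate, also rose under punicalagin. It was at 9.68, 9.70 and 8.60 on the punicalagin arrays of passages 6, 7 and 8, 8.24 and 8.35 on the myricetin arrays of passages 7 and 8, 8.30 and 8.91 on the quercetin arrays of passages 7 and 8, and 7.53, 6.84 and 7.86 on the DMSO arrays of passages 6, 7 and 8. The DMSO arrays were all below those of the 3 compounds, and the punicalagin array of passage 8 lay within the quercetin range. Punicalagin arrays averaged 9.33 ± 0.63 and DMSO arrays 7.41 ± 0.52 (SD, n = 3 each), so that the log2 difference was 1.92 ± 0.34 (SE, 95% interval 1.14 to 2.69), or 3.78-fold, at a limma adjusted p of 0.0238. Within passages 6, 7 and 8 the difference was 2.16, 2.87 and 0.73. The limma adjusted p was 0.0912 without the DMSO array of passage 7, 0.132 without the punicalagin array of passage 6 and 0.152 without that of passage 7, and 0.0801 when all clusters of the table were tested. By the methods' t-test the adjusted p was 0.337.

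FADS1, the delta-5 desaturase, was at 7.33, 7.75 and 7.59 on the punicalagin arrays of passages 6, 7 and 8, 7.19 and 7.14 on the myricetin arrays of passages 7 and 8, 7.10 and 7.40 on the quercetin arrays of passages 7 and 8, and 6.11, 6.23 and 7.08 on the DMSO arrays of passages 6, 7 and 8. Every array of the 3 compounds was above the DMSO arrays, the DMSO array of passage 8 being just under the lowest of them. The log2 difference of punicalagin and DMSO was 1.08 ± 0.25 (SE, 95% interval 0.50 to 1.65), or 2.11-fold, and missed the threshold (limma adjusted p = 0.0731). With the passage as a block in the fit it passed (limma adjusted p = 0.0412). It also passed on passages 7 and 8 alone (0.0467), with dim clusters left out (0.0495) and without the DMSO array of passage 8 (0.0109).

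The elongase ELOVL5 was at 11.12, 11.08 and 10.87 on the punicalagin arrays of passages 6, 7 and 8, 10.27 and 10.32 on the myricetin arrays of passages 7 and 8, 10.60 and 10.80 on the quercetin arrays of passages 7 and 8, and 10.25, 10.48 and 10.41 on the DMSO arrays of passages 6, 7 and 8. Punicalagin arrays were highest and quercetin arrays next without overlap, and myricetin arrays lay within the DMSO range. The log2 difference of punicalagin and DMSO was 0.64 ± 0.14 (SE, 95% interval 0.31 to 0.97) with a limma adjusted p of 0.0617, which became 0.0303 when arrays were weighted by their quality. Without the punicalagin array of passage 6 the limma adjusted p was 0.256, and by the methods' t-test the adjusted p was 0.213. ELOVL6, by contrast, was at 2.37 to 2.68 on punicalagin arrays, 2.57 to 2.79 on myricetin arrays, 2.48 to 2.60 on quercetin arrays and 2.37 to 2.68 on DMSO arrays, under the lower quartile of every array. The table gives no detection calls. The log2 difference of punicalagin and DMSO for ELOVL6 was -0.041 ± 0.15 (SE, 95% interval -0.39 to 0.31), and a fall cannot be read from a signal this low.

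FASN, the last of the enzymes that make palmitate, was at 8.25, 8.86 and 8.51 on the punicalagin arrays of passages 6, 7 and 8, 8.48 and 8.45 on the myricetin arrays of passages 7 and 8, 8.54 and 8.69 on the quercetin arrays of passages 7 and 8, and 7.44, 8.07 and 8.24 on the DMSO arrays of passages 6, 7 and 8. All compound arrays exceeded all DMSO arrays, although the punicalagin array of passage 6 and the DMSO array of passage 8 were almost equal. The log2 difference of punicalagin and DMSO was 0.62 ± 0.24 (SE, 95% interval 0.078 to 1.16), with a limma adjusted p of 0.320. It was 0.38 without the DMSO array of passage 6.

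ACACA was at 7.37 to 7.55 on punicalagin arrays, 7.30 and 7.44 on myricetin arrays and 7.11 and 7.43 on quercetin arrays, while the DMSO arrays of passages 6, 7 and 8 spread over 6.29, 7.20 and 7.62. The spread of the DMSO arrays took in all the other arrays, and the log2 difference of punicalagin and DMSO, 0.45 ± 0.29 (SE, 95% interval -0.22 to 1.12), was 0.075 without the DMSO array of passage 6 and 0.74 without that of passage 8. ACLY, whose groups overlapped throughout, differed by 0.043 ± 0.21 (SE, 95% interval -0.43 to 0.52). The synthetase ACSL1 was at 8.25 to 8.90 on punicalagin arrays, 7.89 to 8.24 on myricetin arrays, 8.30 to 8.39 on quercetin arrays and 8.06 to 8.41 on DMSO arrays. Its log2 difference of punicalagin and DMSO was 0.22 ± 0.20 (SE, 95% interval -0.23 to 0.68), and 0.020 without the punicalagin array of passage 7.

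The median SD of the 9 genes was 0.21 over punicalagin, 0.097 over myricetin, 0.14 over quercetin and 0.42 over DMSO arrays, while the median over all clusters tested was 0.18 over punicalagin, 0.099 over myricetin, 0.084 over quercetin and 0.19 over DMSO arrays. The SD was larger over DMSO than over punicalagin arrays for 5 of the 9, and for ACLY, SCD, ELOVL5 and ACSL1 it was larger over punicalagin arrays. The DMSO array of passage 8 was the highest DMSO array for 7 of the 9 genes, all except ELOVL5 and ACSL1, and that of passage 6 the lowest for all except SCD. The mean level of 10 proliferation genes was 4.58 to 5.13 on punicalagin arrays, 4.97 to 5.21 on myricetin arrays, 5.06 to 5.13 on quercetin arrays and 4.69 to 5.57 on DMSO arrays, the highest being the DMSO array of passage 8, and its part in these values was not tested. No proliferation gene passed the threshold in a comparison with DMSO.

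Under myricetin none of the 9 genes passed the threshold in limma (0.438% of all clusters rose and 0.0707% fell), and none did by the methods' t-test after adjustment. At an unadjusted p under 0.05, 4 of the 9 were higher (5.12% of all clusters), FADS2, FADS1, SCD and FASN, and for the same number every myricetin array lay above every DMSO array (13.3% of all clusters). The median difference over the 9 genes was 0.34, against 0.0025 over all clusters. Myricetin and quercetin have no array of passage 6, and on passages 7 and 8 alone the median over the 9 genes was 0.064 for myricetin. Without the DMSO array of passage 8 it was 0.63. FADS2 differed by 1.46 ± 0.33 (SE, 95% interval 0.74 to 2.18, limma adjusted p = 0.0970), and SCD by 0.89 ± 0.36 (SE, 95% interval 0.11 to 1.67, limma adjusted p = 0.488). FADS2 and FADS1 passed without the DMSO array of passage 8, with log2 differences of 1.90 and 0.99 (limma adjusted p = 0.00177 and 0.0303), and FADS2 passed with array weights (0.0228). On passages 7 and 8 alone FADS2 was at 1.21 and FADS1 at 0.50. ELOVL5 differed by -0.085 ± 0.14 (SE, 95% interval -0.40 to 0.22).

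Under quercetin, likewise, none of the 9 passed in limma (2.8% of all clusters rose and 1.13% fell) or by the methods' t-test after adjustment, and 5 were higher at an unadjusted p under 0.05 (7.95% of all clusters). For 4 of the 9, every quercetin array lay above every DMSO array (14.6% of all clusters), and the median difference was 0.32, against -0.036 over all clusters. On passages 7 and 8 alone this median was 0.255, and without the DMSO array of passage 8 it was 0.53. SCD had the largest difference, 1.20 ± 0.36 (SE, 95% interval 0.42 to 1.98, limma adjusted p = 0.1000). FADS2 followed at 0.96 ± 0.33 (SE, 95% interval 0.24 to 1.68, limma adjusted p = 0.163), then FADS1 at 0.78 ± 0.25 (SE) and FASN at 0.70 ± 0.23 (SE), which was 0.46 without the DMSO array of passage 6. Without the DMSO array of passage 8, FADS2 and FADS1 passed with log2 differences of 1.40 and 1.08 (limma adjusted p = 0.00175 and 0.00749). On passages 7 and 8 alone FADS2 was at 0.71, FADS1 at 0.59 and SCD at 1.26. With array weights SCD, FASN and FADS1 passed (0.0135, 0.0412 and 0.0445). The comparisons of punicalagin, myricetin and quercetin with DMSO share the 3 DMSO arrays and are therefore not independent of each other.

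**Figure D2:**
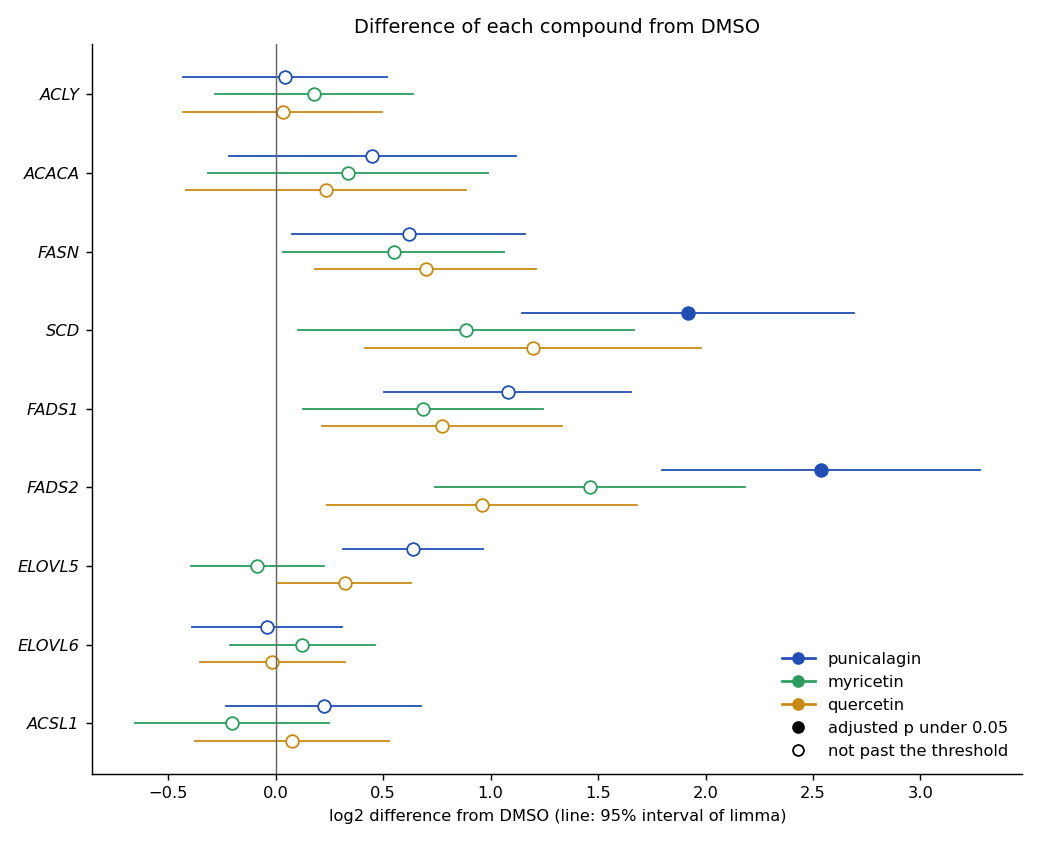
Log2 difference from DMSO of each gene for punicalagin, myricetin and quercetin, with lines for 95% intervals of limma and filled points where the adjusted p was under 0.05. FADS2 and SCD under punicalagin, at 2.54 and 1.92, are the filled points.

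Between compounds, 3 pairs were compared, and p-values were adjusted within each pair over all clusters. Punicalagin exceeded quercetin for 1 of the 9 genes, FADS2 (2.06% of all clusters were higher and 1.85% lower). The log2 difference was 1.58 ± 0.33 (SE, 95% interval 0.86 to 2.30), or 2.98-fold, with a limma adjusted p of 0.0221, and it was 1.77 and 1.23 within passages 7 and 8. The call was lost without the punicalagin array of passage 6 (limma adjusted p = 0.0837) or 7 (0.0689), with all clusters tested (0.0657), and by the methods' t-test after adjustment. The log2 difference was 1.43 without the quercetin array of passage 7 and 1.73 without that of passage 8. These 2 fits left 1 quercetin array, so only the size is given, and whether the call held is not. At an unadjusted p under 0.05, 2 of the 9 were higher (7.92% of all clusters), FADS2 and ELOVL5, the same genes for which every punicalagin array lay above every quercetin array (16.8% of all clusters). SCD differed by 0.72 ± 0.36 between punicalagin and quercetin (SE, 95% interval -0.062 to 1.50), by 1.40 within passage 7 and by -0.32 within passage 8. This difference was 1.08 without the punicalagin array of passage 8 and 0.41 without the quercetin array of passage 7. ELOVL5 differed by 0.32 ± 0.14 (SE, 95% interval 0.0093 to 0.63).

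Punicalagin and myricetin did not differ past the threshold for any of the 9 genes in limma (0.519% of all clusters were higher and 0.00943% lower) or by the methods' t-test after adjustment, while 3 were higher at an unadjusted p under 0.05 (5.82% of all clusters). For 5 of the 9, every punicalagin array lay above both myricetin arrays (11.1% of all clusters). ELOVL5 differed by 0.73 ± 0.14 (SE, 95% interval 0.42 to 1.03, limma adjusted p = 0.0509), with all punicalagin arrays above both myricetin arrays. It passed with dim clusters left out (0.0399), with array weights (0.0129) and with array medians subtracted (0.0446). FADS2 differed by 1.07 ± 0.33 (SE, 95% interval 0.35 to 1.80, limma adjusted p = 0.228) and SCD by 1.03 ± 0.36 (SE, 95% interval 0.25 to 1.81, limma adjusted p = 0.329). Without the punicalagin array of passage 8, SCD and ELOVL5 passed with log2 differences of 1.40 and 0.80 (limma adjusted p = 0.0460 and 0.0300).

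Myricetin and quercetin are close relatives, myricetin carrying a further hydroxyl group on its B ring. None of the 9 genes differed between them past the threshold in limma (0.537% of all clusters were higher with myricetin and 1.16% lower) or by the methods' t-test after adjustment, and 1, ELOVL5, was lower at an unadjusted p under 0.05 (6.46% of all clusters), and none was higher at that level (6.46%). Both myricetin arrays lay above both quercetin arrays for 1 of the 9, FADS2 (31.8% of all clusters), and below both for 3, FASN, ELOVL5 and ACSL1 (23.8% of all clusters). ELOVL5 differed by -0.41 ± 0.15 (SE, 95% interval -0.75 to -0.067, limma adjusted p = 0.268), and with array weights it passed (0.0355). FADS2 differed by 0.50 ± 0.36 (SE, 95% interval -0.29 to 1.29) and SCD by -0.31 ± 0.39 (SE, 95% interval -1.17 to 0.55). SCD was at -0.62 without the quercetin array of passage 7 and -0.0061 without that of passage 8. The 95% intervals of the 9 genes reached from -1.17 to 1.29, and those of SCD and FADS2 each took in a doubling in one direction.

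The order of the group means differed from gene to gene. FADS2 ran punicalagin, myricetin, quercetin, DMSO, and only its last pair of neighbours overlapped. SCD, FADS1 and ELOVL5 had punicalagin first and quercetin next. For SCD and FADS1 the ranges of neighbouring compounds overlapped, and myricetin and DMSO did not. For ELOVL5 myricetin and DMSO came last and overlapped. FASN ran quercetin, punicalagin, myricetin, DMSO. Its punicalagin range overlapped those of the other compounds, its quercetin arrays lay above its myricetin arrays, and DMSO came last without overlap. For ACLY, ACACA, ELOVL6 and ACSL1 all neighbouring groups overlapped.

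Genes of the surrounding pathway were counted in 8 lists. Under punicalagin none of 14 measured genes of citrate and acetyl-CoA supply passed (median log2 difference 0.048), and none of 14 of the malonyl-CoA step and its control (-0.012). There was also no call among 11 other desaturases and their electron carriers (0.10), 14 other acyl-CoA synthetases and fatty acid transport proteins (-0.023), 12 thioesterases and binding proteins (-0.15) and 20 genes of acyl transfer to glycerol and phospholipids (0.15). At an unadjusted p under 0.05, where 7.34% of all clusters were higher and 4.94% lower, 9 genes of acyl transfer were higher and 0 lower, and 5 synthetases or transport proteins were higher and 1 lower. In the same way 1 other desaturase or electron carrier and 1 thioesterase or binding protein were higher, 1 gene of citrate supply was lower, and no gene of the malonyl-CoA step was either. The methods' t-test after adjustment called none of the 21214 clusters in this comparison. Of 10 other genes of elongation, 4 were higher and 1 lower at an unadjusted p under 0.05. Past the threshold 1 of the 10 rose (2.13% of all clusters), HSD17B12, which encodes the ketoacyl-CoA reductase of the elongation cycle. It was at 8.56, 8.80 and 8.30 on the punicalagin arrays and at 7.51, 7.05 and 7.68 on the DMSO arrays of passages 6, 7 and 8 (log2 difference 1.14 ± 0.20 SE, limma adjusted p = 0.0237).

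Of 20 measured genes of transcriptional control, 6 were higher under punicalagin and 1 lower at an unadjusted p under 0.05. Over all clusters the shares were 7.34% and 4.94%. Past the threshold 3 of the 20 rose and none fell, against 2.13% and 0.198% of all clusters. They were PPARG, the fatty acid receptor of macrophages and fat cells (1.25 ± 0.14 SE, limma adjusted p = 0.00373), NR1H3, which encodes LXR alpha (1.16 ± 0.14 SE, limma adjusted p = 0.00532), and SREBF2, which encodes SREBP-2 (0.94 ± 0.16 SE, limma adjusted p = 0.0219). SREBF1, the gene of SREBP-1, was at 6.60, 7.20 and 6.78 on the punicalagin arrays and at 5.46, 6.39 and 6.48 on the DMSO arrays of passages 6, 7 and 8, a log2 difference of 0.75 ± 0.28 (SE, limma adjusted p = 0.298). The values of SREBF1 and PPARG, NR1H3 and SREBF2 were read on the same arrays as the 9 genes, and whether they bear on them was not tested.

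**Figure D3:**
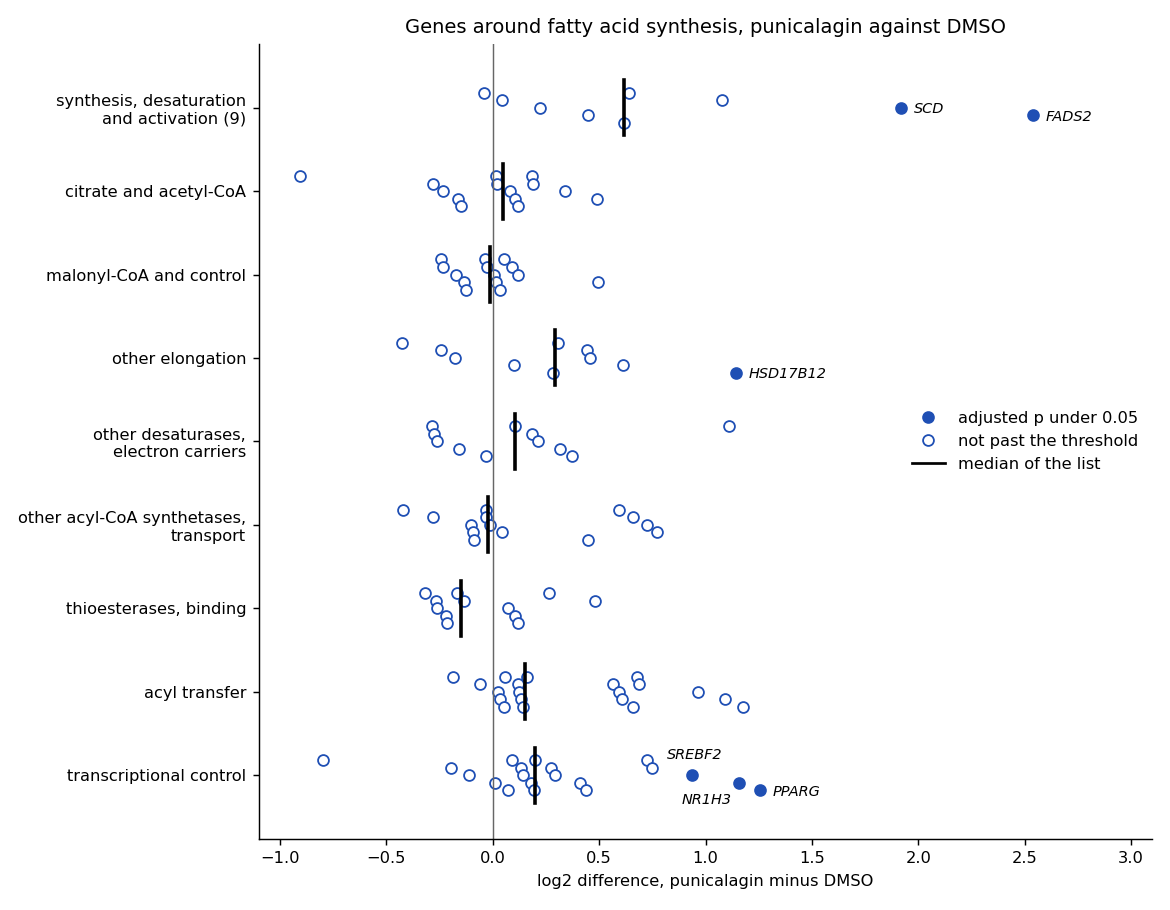
Log2 difference of punicalagin and DMSO for the measured genes of the family (top row) and of 8 lists of neighbouring genes; each point is a gene, filled where the adjusted p was under 0.05, and vertical bars are list medians. The median of the top row was 0.62, and those of the other rows lay between -0.15 and 0.29. The macrophage markers, not shown here, had a median of 0.75.

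PPARG and NR1H3 rose under the flavonols too, by 0.98 ± 0.14 and 1.13 ± 0.14 with myricetin (SE, limma adjusted p = 0.0107 and 0.00417), and these were the 2 calls among the lists in that comparison. Under quercetin PPARG rose by 1.03 ± 0.14 (SE, limma adjusted p = 0.00138) and NR1H3 by 2.97 ± 0.14 (SE, limma adjusted p = 1.34e-06). NR1H3 was at 6.66, 6.57 and 6.72 on the punicalagin arrays of passages 6, 7 and 8, 6.57 and 6.68 on the myricetin arrays of passages 7 and 8, 8.44 and 8.48 on the quercetin arrays of passages 7 and 8, and 5.38, 5.43 and 5.67 on the DMSO arrays of passages 6, 7 and 8. Both quercetin arrays stood above all other arrays. Between punicalagin and quercetin NR1H3 differed by -1.81 ± 0.14 (SE, limma adjusted p = 0.000121).

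In the list of 14 synthetases and transport proteins, 2 genes rose and 1 fell past the threshold under quercetin (2.8% and 1.13% of all clusters). None passed under punicalagin or myricetin. ACSL5, another long-chain acyl-CoA synthetase, was at 7.35, 7.61 and 7.04 on the punicalagin arrays, 6.76 and 6.93 on the myricetin arrays, 8.42 and 8.43 on the quercetin arrays and 7.15, 6.73 and 6.34 on the DMSO arrays, in order of passage. It rose by 1.69 ± 0.22 under quercetin (SE, limma adjusted p = 0.00141) and differed by -1.09 ± 0.22, being lower in punicalagin than in quercetin arrays (SE, limma adjusted p = 0.0208), and by -1.58 ± 0.25, being lower in myricetin than in quercetin arrays (SE, limma adjusted p = 0.00899). SLC27A4, a fatty acid transport protein, rose by 0.91 ± 0.21 under quercetin (SE, limma adjusted p = 0.0316). Of the elongation list HACD4, a hydroxyacyl-CoA dehydratase, fell by 0.93 ± 0.22 on the log2 scale (SE, limma adjusted p = 0.0346), and of the acyl transfer list LPCAT1, a lysophosphatidylcholine acyltransferase, rose by 0.82 ± 0.17 (SE, limma adjusted p = 0.0228). The remaining calls under quercetin, ACSF2 (lower) and USF2 (higher), were chosen after their values were seen, with log2 differences of -0.86 ± 0.16 and 0.94 ± 0.13 (SE, limma adjusted p = 0.00960 and 0.00172).

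FADS2 had the widest range of group means of the 9 genes, and the 5 genes nearest to it over the 10 arrays were LIPG, SERPINI1, DHCR7, CD180 and ADAMTS1. Nearness was measured as the root mean square difference of the centred log2 values, which was 0.35 for LIPG and 0.41 for ADAMTS1. LIPG, the endothelial lipase gene, was at 5.90 to 6.49 on punicalagin arrays, 5.04 to 5.12 on myricetin arrays, 4.84 to 4.88 on quercetin arrays and 4.04 to 4.40 on DMSO arrays. DHCR7, the last enzyme of the cholesterol pathway, was at 8.13 to 9.41 on punicalagin arrays, 7.36 to 7.39 on myricetin arrays, 6.68 to 7.34 on quercetin arrays and 6.20 to 6.91 on DMSO arrays. SERPINI1, about as near as LIPG (0.35), was at 7.26 to 7.85 on punicalagin arrays and 4.87 to 5.31 on DMSO arrays. CD180 was at 8.39 to 9.08 on punicalagin arrays and 5.94 to 6.88 on DMSO arrays. For ADAMTS1 these ranges were 6.38 to 6.65 and 4.41 to 4.51. In FADS2 and DHCR7, but not in LIPG, SERPINI1, CD180 or ADAMTS1, the quercetin and DMSO ranges overlapped. The points share their arrays, and the likeness is a description over 10 arrays.

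**Figure D4:**
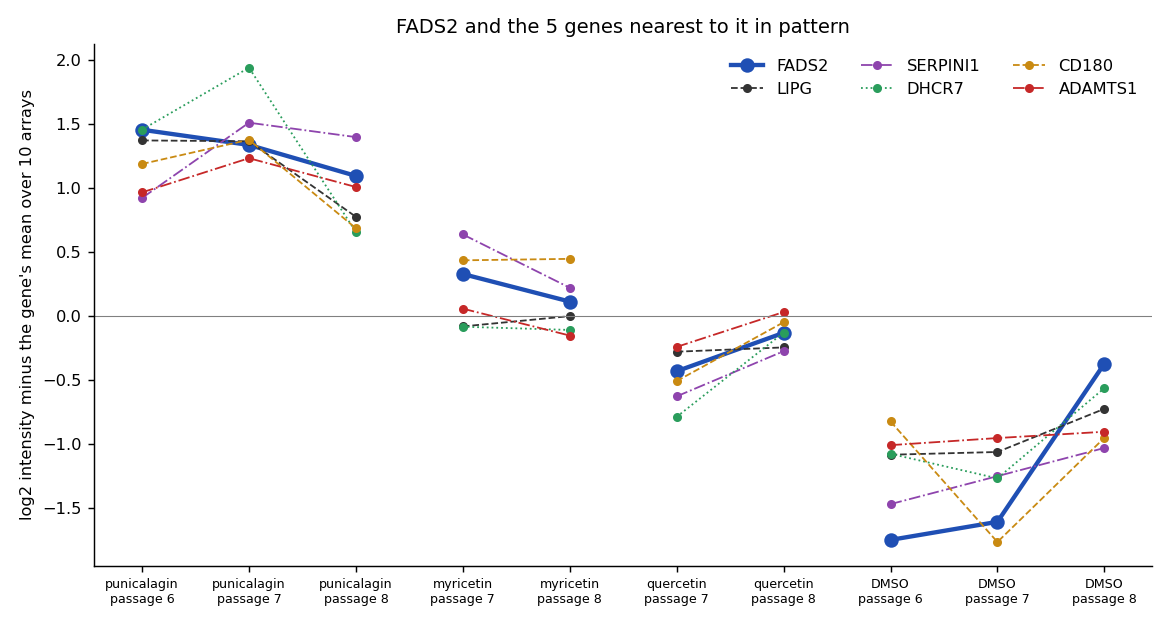
Log2 intensity minus the gene's mean over 10 arrays for FADS2 and the 5 genes nearest to it, by array; lines join arrays of one group to guide the eye. All 6 genes were above their mean on the punicalagin arrays and below it on the DMSO arrays.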

How the data were processed

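The 10 samples are THP-1 cultures read on Affymetrix Human Gene 1.0 ST arrays. For each transcript cluster the authors deposited a log2 intensity made with RMA (background correction, quantile normalisation and a summary of probes). Expression Console of Affymetrix, RMA and Partek 7.0 are listed in the submitters' processing notes. It is not given in the sources used here whether all arrays were normalised in one run, or which genome build the clusters follow. No normalisation was added. The small number of arrays limits the precision.

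A probe table gives 1 symbol to 19460 of the 33297 clusters, several to 1754 and none to 12083. Tests ran on the 21214 that have a symbol, dim ones included. Groups were compared with lmFit and eBayes of limma 3.58.1 under R 4.3.3, with Benjamini-Hochberg adjustment over those clusters and a threshold of 0.05. Punicalagin and DMSO were fitted on their 6 arrays and the other pairs on all 10 arrays with a shared spread. The script was tested on simulated data. Genes of the pathway lists were named if past the threshold, by size of change. Up to 3 per list were named for punicalagin and up to 2 for each flavonol against DMSO. The 5 genes nearest to the most variable member were named too. SREBF1, ACSF2, USF2 and the cell type markers were named outside these rules. The members and lists were chosen with earlier results of these data known.

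The labels give the passage of each array, and arrays of one passage were taken as pairs. Deviations from the group means of punicalagin and DMSO arrays correlated at 0.36, -0.097 and 0.32 within passages 6, 7 and 8, and at -0.44 to 0.33 between different passages. The block for passage was an alternative. Other alternatives were passages 7 and 8 alone, all clusters, dim clusters left out, trend and robust estimation, array weights, array medians subtracted, the methods' t-test (in place of the analysis of variance in the study's methods), all 10 arrays in 1 fit, and each replicate left out.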

Additional observations from a re-analysis of the deposited data

How the results depend on the processing

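Of the 2 calls for punicalagin against DMSO, 1 remained when all clusters of the table were tested (FADS2), 0 by the methods' t-test after adjustment, and 4 genes passed when all 10 arrays were fitted together (SCD, FADS1, FADS2 and ELOVL5). With 1 replicate left out the number called ranged from 0 to 3 for punicalagin against DMSO, 0 to 2 for each of myricetin against DMSO, quercetin against DMSO and punicalagin against myricetin, and 0 to 1 for punicalagin against quercetin. With array weights the number was 1 for myricetin against DMSO, 3 for quercetin against DMSO, 1 for punicalagin against myricetin and 1 for myricetin against quercetin. For punicalagin against myricetin it was 1 with dim clusters left out and 1 with array medians subtracted, and for punicalagin against quercetin 0 with all clusters and 0 by the methods' t-test. The cause was not tested. The block for passage raised the calls for punicalagin against DMSO to 3 and changed no other call among the 9 genes. No gene had an alternative cluster, so that alternative gave no value, and ELOVL6 gave none with dim clusters left out.

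Signs turned in values that had passed no test. With the passage as a block, ACLY was at -0.12 and ACSL1 at -0.017 for quercetin against DMSO, ACLY at 0.013 for punicalagin against myricetin and FASN at 0.11 for punicalagin against quercetin. On passages 7 and 8 alone, ACACA was at -0.038 for myricetin against DMSO, ACLY at -0.083, ACACA at -0.14 and ACSL1 at -0.029 for quercetin against DMSO, ACLY at 0.047 for punicalagin against myricetin and FASN at 0.066 for punicalagin against quercetin. With array weights, ACLY was at -0.13 for punicalagin against DMSO, ACLY at -0.040, ACACA at -0.0090 and ACSL1 at -0.00091 for quercetin against DMSO, FASN at -0.015 for punicalagin against myricetin, and ACLY at -0.092 and ELOVL6 at 0.0068 for punicalagin against quercetin. With 1 replicate left out, ACLY ranged from -0.15 to 0.23 and ELOVL6 from -0.13 to 0.032 for punicalagin against DMSO, and ACACA from -0.038 to 0.63 for myricetin against DMSO. For quercetin against DMSO, ACLY ranged from -0.083 to 0.14, ACACA from -0.14 to 0.53, ACSL1 from -0.029 to 0.15 and ELOVL6 from -0.10 to 0.051. For punicalagin against myricetin, ACLY ranged from -0.33 to 0.047 and FASN from -0.090 to 0.22. For punicalagin against quercetin, ACLY ranged from -0.18 to 0.19, FASN from -0.24 to 0.066, ACSL1 from -0.057 to 0.27 and ELOVL6 from -0.11 to 0.047. For myricetin against quercetin, ACACA ranged from -0.056 to 0.26 and FADS1 from -0.24 to 0.059.

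Over the alternatives, replicates left out included, the number of clusters called higher and lower ranged widely. It was 0 to 833 and 0 to 230 for punicalagin against DMSO (452 and 42 in the fit reported), 0 to 350 and 0 to 183 for myricetin against DMSO (93 and 15), and 0 to 1375 and 0 to 1164 for quercetin against DMSO (593 and 239). It was 0 to 457 and 0 to 47 for punicalagin against myricetin (110 and 2), 0 to 1177 and 0 to 1271 for punicalagin against quercetin (437 and 393), and 5 to 1240 and 0 to 1320 for myricetin against quercetin (114 and 247). The highest numbers came with array weights, except for punicalagin against DMSO (all 10 arrays in 1 fit for higher, passages 7 and 8 for lower) and for lower calls in punicalagin against myricetin (passages 7 and 8). Low signal limits ELOVL6, and 2 arrays per flavonol limit the comparisons that use them.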
